A study of Prunus avium with 21 samples.

Results

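The transcripts described here stood lower in hydrogen cyanamide-treated than in control sweet cherry flower buds at 1 day after treatment (dat), with a smaller difference or none, or one of opposite sign, at 6 dat. They were chosen by the deposited expression values themselves: the mean of log2(FPKM + 0.5) in treated buds had to lie at least 2 below that of control buds at 1 dat, the highest treated library below the lowest control library, the difference at 6 dat above -1, and the control mean at 1 dat at 5 FPKM or more. FPKM counts sequenced fragments per kilobase of transcript, scaled to the size of the library. Of 112043 assembled transcripts, 69 met the rule, and they belong to 66 of 48840 assembled genes, an assembled gene being a set of related transcripts that the assembler grouped together. The differences at 1 and 6 dat, and every other contrast that uses those libraries, are therefore descriptions without a test, and tests were kept for the libraries of day 0 and 3 dat.

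Cut branches of the cultivar 'Burlat' from trees 4, 5 and 6 were sprayed either with 2% Dormex, a commercial formulation of hydrogen cyanamide that is used to break bud dormancy, or with deionized water. Treated and control flower buds were taken at 1, 3 and 6 dat, next to untreated buds of day 0, which gives 7 groups of 3 libraries, 1 per tree, each from the pooled buds of a single branch. The study's own test of 1 dat left out a replicate that it does not name, whereas all deposited libraries of that day entered the rule. All branches but those of day 0 had stood in warm forcing conditions under constant light, and day 0 was sampled in the evening whereas all later buds were sampled in the morning, so that forcing and time of day cannot be told apart from any difference to day 0. Summed FPKM per library ranged between 671152 and 760090, and each of the 21 libraries correlated most strongly with a library of its own group. The paper gives the read depth as an average over samples, and that of single libraries is unknown. Summed over transcripts described as floral or dormancy regulators, the bud marker list, libraries held between 528.9 and 1329 FPKM, against 43.57 to 85.0 FPKM for anther and pollen markers and 326.5 to 968.4 FPKM for green tissue markers. These lists held 96, 32 and 13 transcripts of 12, 3 and 3 genes, all from genes with a transcript that the study had called. The sums therefore cannot be set against each other as measures of what the buds were made of.

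Hydrogen cyanamide is known to inhibit catalase and to shorten dormancy, and buds that leave dormancy exchange a programme of cold protection and quiescence for one of growth. A transcript can become scarcer in such a change because its gene gives less RNA, or because the gene gives another splice form in its place, and an assembly without a genome can also divide the reads of a single gene among several near-identical sequences. The members are given below with the level of the single transcript and of its whole assembled gene, since a form and its gene can differ.

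At 1 dat the members had a median difference of -2.35 on the log2 scale between treated and control buds, and the differences lay between -4.06 and -2.01. Their median level was 1.45, 1.06 and 0.49 FPKM in the treated libraries of trees 4, 5 and 6, against 8.68, 8.63 and 8.31 FPKM in the control libraries of the same trees. The treated library of tree 6 was thus the lowest of the day, while the control libraries were close to each other. At 3 dat the medians were 3.91, 2.54 and 4.43 FPKM in treated buds, against 8.08, 8.0 and 6.81 FPKM in control buds. At 6 dat they were 5.0, 5.05 and 5.96 FPKM in treated buds, against 6.3, 5.26 and 5.4 FPKM in control buds, and the medians of the 2 groups overlapped. Single members could still differ at 6 dat. Without overlap between the groups, 9 members were lower in treated buds and 6 were higher, and the shares of all transcripts were not computed. Among the 9, TR33665|c0_g1_i2 had 12.0, 10.9 and 9.43 FPKM in treated buds, against 21.1, 23.5 and 20.4 FPKM in control buds. The untreated buds of day 0 had medians of 4.64, 7.51 and 5.79 FPKM.

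**Figure D1:**
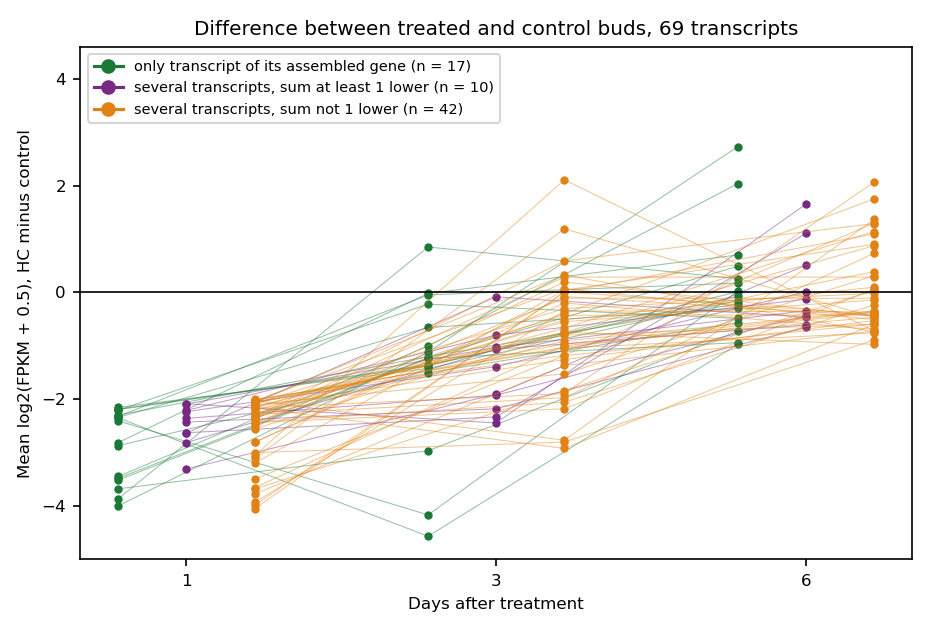
Mean log2(FPKM + 0.5) of treated minus control buds (y axis) at 1, 3 and 6 dat (x axis, equally spaced) for the 69 transcripts, a point and line each, coloured by whether the transcript is alone in its assembled gene and whether the summed gene was at least 1 lower at 1 dat. All points lie below -2 at 1 dat and above -1 at 6 dat because the rule asks for it; the median at 3 dat was -1.01.

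Seen against day 0, the difference at 1 dat came in different shapes. In 37 of the 69 transcripts the treated level was at least 1 below day 0 on the log2 scale while the control level was within 1 of it. In 17 the treated level was within 1 of day 0 and the control level at least 1 above it, in 11 the treated level was at least 1 below and the control level at least 1 above, and in 4 both were at least 1 below. Lower treated levels thus describe most members, but 28 of the 69 also had a control level at least 1 above day 0. TR40462|c1_g1_i1, without a description, showed a higher control level in every tree, with 20.0, 22.1 and 23.2 FPKM in treated buds at 1 dat, against 95.5, 91.0 and 96.7 FPKM in control buds, beside 26.2, 25.6 and 23.2 FPKM at day 0. Its treated libraries stayed near the level of untreated buds and its control libraries stood far above it, with little spread in either group.

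**Figure D2:**
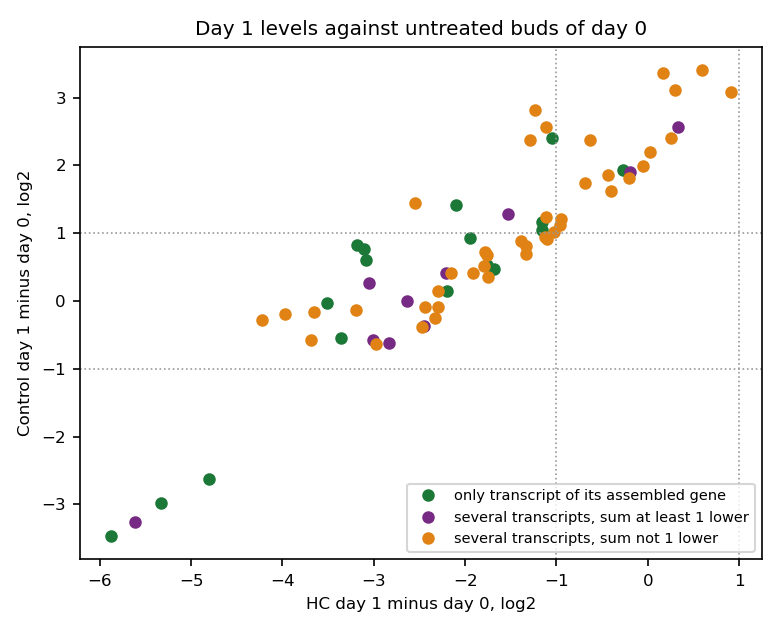
Mean log2(FPKM + 0.5) at 1 dat minus day 0 for treated buds (x axis) and control buds (y axis), 1 point per transcript, with dotted lines at -1 and 1. Of the 69 points, 52 lie at or left of -1 for treated buds and 28 at or above 1 for control buds.

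By 6 dat the difference was above -1, as the rule requires, and it had changed from either side. In 34 transcripts the treated level was at least 1 higher at 6 than at 1 dat while the control level did not drop by 1 or more, in 16 the control level was at least 1 lower and the treated level not 1 higher, in 17 both held, and in 2 neither did. TR21207|c0_g2_i1 showed both. It had 1.73, 1.55 and 4.46 FPKM in treated buds at 1 dat, against 37.6, 40.8 and 58.8 FPKM in control buds, and 10.8, 11.4 and 12.4 FPKM in treated buds at 6 dat, against 1.09, 1.71 and 1.17 FPKM in control buds. Treated and control libraries did not overlap on either day, but their order had turned round, and the difference of 2.73 at 6 dat was the highest of all 69 members. In all, 11 members had a difference of 1 or more at 6 dat, and 35 lay within 0.5 of no difference.

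Many members were estimated near zero in treated buds. In the treated libraries of 1 dat, 22, 27 and 35 of the 69 transcripts were under 0.5 FPKM in trees 4, 5 and 6, against none in any control library of that day, where the rule sets a least mean. A value under 0.01 FPKM occurred in at least 1 treated library of 1 dat in 41 members, and in all 3 in 3 members. Outside that group such values were found in 16 members in treated and 7 in control buds at 3 dat, in 7 in treated and 15 in control buds at 6 dat, and in 15 members at day 0. Only 26 of the 69 were at or above 0.5 FPKM in every library other than the treated ones of 1 dat, so the other 43 were also under that level in a tree at some other time or in control buds. TR12898|c5_g3_i1 is such a case, with under 0.01 FPKM in all 3 treated libraries of 1 dat and 17.7, 3.01 and 5.71 FPKM in control buds, but also under 0.01 FPKM in tree 6 at day 0 and in the control library of tree 4 at 6 dat.

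The 10 lowest differences at 1 dat, between -4.06 and -3.52, were those of TR39646|c0_g2_i10, TR21207|c0_g2_i1, TR13650|c3_g1_i4, TR10654|c1_g1_i1, TR12898|c5_g3_i1, TR12993|c4_g3_i5, TR33168|c2_g4_i4, TR12340|c0_g1_i1, TR13518|c3_g2_i8 and TR6426|c0_g3_i1. Only TR10654|c1_g1_i1 among them has a description. TR39646|c0_g2_i10, at the head of the order, had under 0.01, 0.04 and 0.12 FPKM in treated buds at 1 dat, against 3.93, 16.4 and 9.85 FPKM in control buds, but at day 0 it had under 0.01 FPKM in trees 4 and 5 and 8.17 FPKM in tree 6. TR13650|c3_g1_i4 had under 0.01, under 0.01 and 4.31 FPKM in treated buds, against 19.8, 9.2 and 24.3 FPKM in control buds, while at 3 dat it had 13.9, 14.1 and 4.95 FPKM in treated buds, against 24.7, 5.72 and 6.81 FPKM in control buds. Its groups overlapped again 2 days later. TR33168|c2_g4_i4 had 1.17, under 0.01 and under 0.01 FPKM in treated buds at 1 dat, against 7.8, 16.2 and 5.92 FPKM in control buds, beside 1.16, 0.56 and 1.93 FPKM at day 0. It was called higher in control buds at 3 dat than at day 0, with a log2 FC of 2.43 (limma FDR = 0.0438).

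Trees also differed widely in the groups that the rule did not use. The median SD over the 3 trees, on the log2 scale, was 0.81 for the members in treated buds at 3 dat, 0.66 in control buds at 3 dat and 0.74 at day 0. Over all transcripts with a mean of 0.5 FPKM or more in the group it was 0.38, 0.38 and 0.40, so the members varied more between trees than a typical transcript.

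A lower transcript often stood beside a gene sum that differed by less than 1 on the log2 scale. Of the 69 members, 17 are the only transcript of their assembled gene, 10 belong to 9 genes of several transcripts whose summed FPKM was also at least 1 lower at 1 dat, and 42 belong to 40 genes whose sum was not lower by that much. In other words, 9 of the 49 genes with several transcripts (2 to 29 each) had a sum at least 1 lower. Over all assembled genes with a day 1 mean of 0.5 FPKM or more, those of a single transcript included, the share was 4.18%. The 49 were picked for a transcript lower in these same libraries, so a share above 4.18% is built into the choice. The sums of 21 of the 49 were within 0.5 of no difference. In the 40 genes the median difference of the sum was still -0.42, and in 17 of them it lay between -1 and -0.5. Among these 42 members the median share of the gene's FPKM held by the member was 3.42% in treated buds at 1 dat, against 18.6% in control buds, and it was 10.7% in treated buds at 3 dat, against 20.6% in control buds, and 18.9% in treated buds at 6 dat, against 16.6% in control buds. In the untreated buds of day 0 it was 16.5%. At 1 dat the share in control buds reached from 3.08% to 61.6%, with 2 members above 50%. The lower share in treated buds at 1 dat follows from how these 42 were chosen, and the rule also limits the difference at 6 dat. The libraries of 3 dat were not used in that choice, and there the median share was lower in treated buds, which was not tested.

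**Figure D3:**
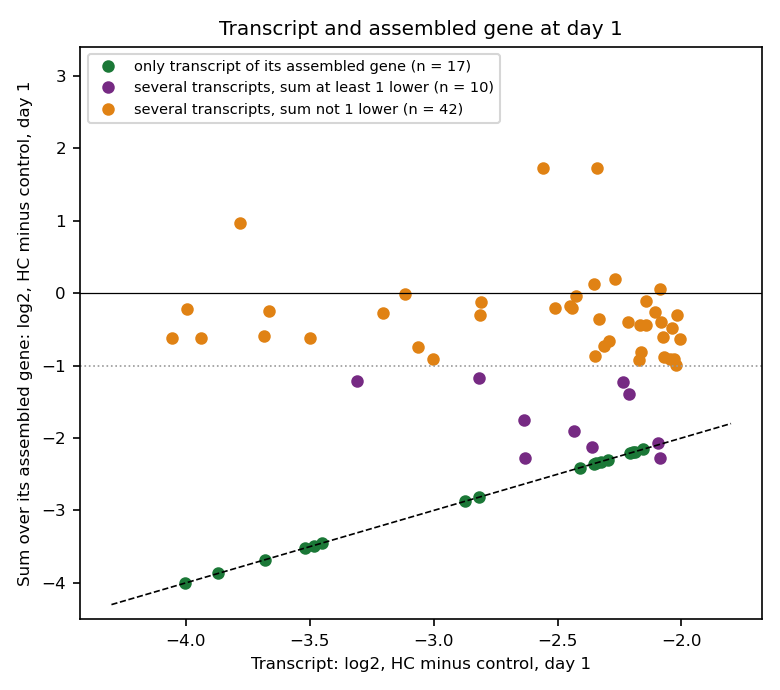
Difference of mean log2(FPKM + 0.5), treated minus control at 1 dat, for each of the 69 transcripts (x axis) and for the summed FPKM of its assembled gene (y axis). The dashed line marks equal values, on which the 17 transcripts without companions lie by construction; the dotted line marks -1, above which the 42 transcripts lie whose gene sum was less than 1 lower.

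The other 293 transcripts of the members' genes that had a day 1 mean of 0.5 FPKM or more had a median difference of -0.17, 34 of them at least 1 lower and 23 at least 1 higher, beside 5.97% of all such transcripts at least 1 lower and 6.54% at least 1 higher. In the 40 genes whose sum was less than 1 lower, only 1 of these other transcripts per gene was examined singly. It was the 1 with the largest treated minus control difference in mean FPKM. In 5 of the 40 genes that transcript stood at least 1 higher in treated buds with no overlap between the groups. Further transcripts may do so, and the share of all transcripts that do was not computed. The widest of these 5 differences was in TR13580|c1_g1. This gene is described as a non-functional NADPH-dependent codeinone reductase 2-like protein, of the aldo-keto reductase family of enzymes that reduce aldehydes and ketones. Its member TR13580|c1_g1_i1 had 1.49, 3.55 and 1.39 FPKM in treated buds at 1 dat, against 13.3, 15.6 and 13.5 FPKM in control buds, and its member TR13580|c1_g1_i14 had 0.65, 1.52 and 0.52 FPKM, against 7.07, 5.06 and 6.81 FPKM. At the same time TR13580|c1_g1_i4 had 30.6, 37.8 and 44.6 FPKM in treated buds, against 1.28, 1.22 and 0.55 FPKM in control buds. Over all 14 transcripts the gene stood higher in treated buds, with a mean sum of 141.1 ± 14.2 FPKM (SD, n = 3), against 42.2 ± 3.02 FPKM in control buds (SD, n = 3). Reads shared among the transcripts of a gene were divided by estimation, and the split between single forms is less certain than the sum.

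TR12993|c4_g3_i5, without a description, went the same way. It had 0.06, 0.69 and under 0.01 FPKM in treated buds at 1 dat, against 8.69, 9.34 and 9.31 FPKM in control buds, while TR12993|c4_g3_i10 of the same gene had 84.8, 94.6 and 71.4 FPKM in treated buds, against 50.4, 37.7 and 32.1 FPKM in control buds. The gene sum averaged 123.3 ± 10.99 FPKM (SD, n = 3) in treated buds, against 62.98 ± 7.67 FPKM (SD, n = 3) in control buds. The other 3 genes with such a higher transcript were TR13650|c3_g1, TR26116|c0_g1 and TR31338|c1_g2, the last 2 described only as uncharacterized proteins.

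Few members could be named. A description was at hand for 18 of the 69, either their own or that of another transcript of their assembled gene, over 15 genes, 6 more have only an ontology or pathway term, and 45 have neither. Descriptions were used only for transcripts that the study had listed as differentially expressed, so members without one are not thereby without a relative in other plants. The best covered gene was TR36291|c0_g1, described as a non-specific lipid-transfer protein 4-like, a small secreted protein of a family that binds lipids and is linked in plants to cuticle and wall formation and to defence. Both of its transcripts are members. TR36291|c0_g1_i1 had 14.8, 13.5 and 21.5 FPKM in treated buds at 1 dat, against 62.6, 68.7 and 82.6 FPKM in control buds. For TR36291|c0_g1_i2 the values were 8.53, 9.43 and 5.01 FPKM in treated buds, against 41.6, 47.5 and 57.6 FPKM in control buds. Treated libraries of both forms stood below every control library and below every library of day 0, where the gene sum was 128.2 ± 8.93 FPKM (SD, n = 3).

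**Figure D4:**
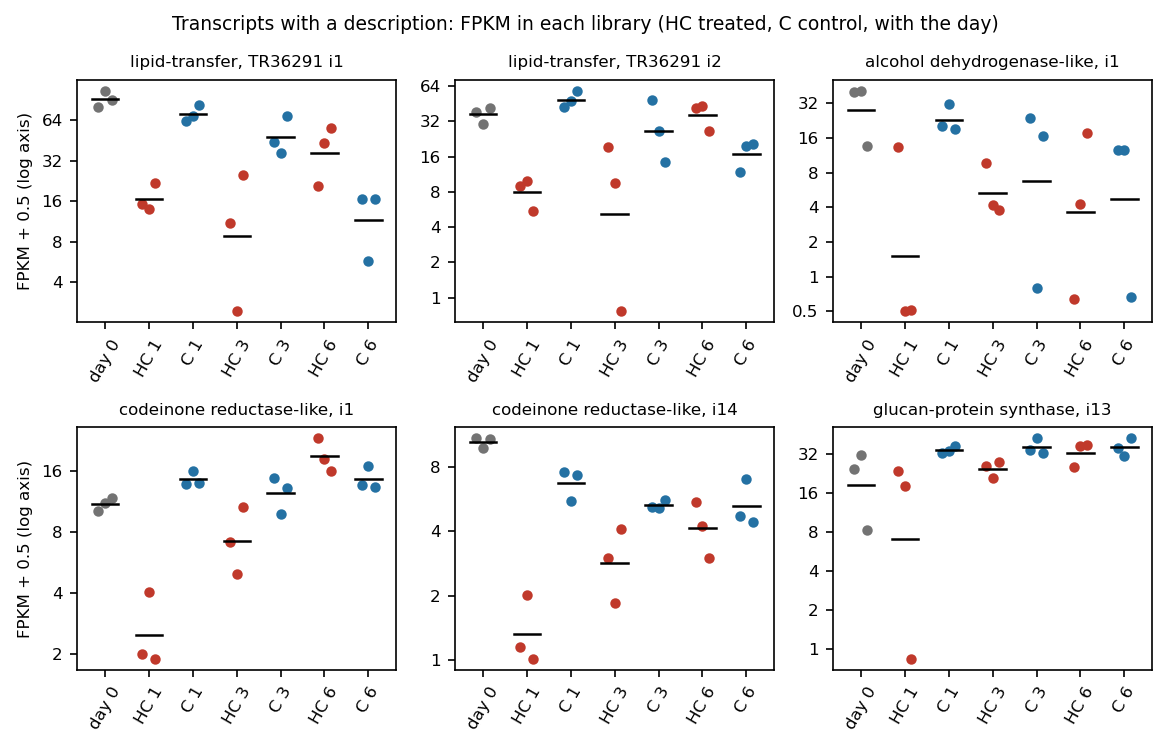
FPKM + 0.5 on a log2 axis for 6 described members in each library: untreated buds of day 0 (grey), treated buds (HC, red) and control buds (C, blue) at 1, 3 and 6 dat, 1 point per tree (4, 5 and 6 left to right), with the mean on the log scale as a bar. Both lipid-transfer protein transcripts stood below control buds at 1 dat and above them on average at 6 dat.

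The difference in the lipid-transfer protein gene at 3 dat could be tested. Its summed FPKM was 29.5, 11.1 and 24.7 in treated buds, against 91.7, 61.8 and 82.2 in control buds. The sum was lower in treated buds by 1.92 ± 0.34 on the log2 scale (SE, limma FDR = 0.0137). Neither transcript alone passed, with log2 differences of -2.45 ± 0.75 (SE, limma FDR = 0.121) and -2.33 ± 1.11 (SE, limma FDR = 0.293). The split of the sum between the forms varied with the tree: treated buds of tree 6 had 24.5 FPKM of the first form and 0.26 FPKM of the second, treated buds of tree 5 had 1.94 and 9.11 FPKM. At 6 dat the order was turned, with sums of 61.0, 85.5 and 81.5 FPKM in treated buds, against 27.4, 24.4 and 36.3 FPKM in control buds. Of the 157 tested transcripts in the list of lipid and cutin proteins, chosen by words in the descriptions and so limited to genes with a transcript that had been called before, 10 (6.37%) were called lower and 9 (5.73%) higher at 3 dat, beside 1.05% and 1.96% of all transcripts tested, with a median log2 FC of -0.11, beside -0.04 over all transcripts tested. The other 13 of the 14 lists, among them cold and dehydration proteins, gibberellin genes and transcription factors, held no member. Only the 18 members with a description could enter a list, so the empty lists do not show that the 69 lack such genes.

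Enzymes and a transporter followed among the described members. TR10654|c1_g1_i1 belongs to a gene described as alcohol dehydrogenase-like, an enzyme family best known in plants from fermentation under low oxygen. It had 12.7, under 0.01 and under 0.01 FPKM in treated buds at 1 dat, against 19.8, 31.2 and 18.5 FPKM in control buds. Tree 4 therefore kept a level that trees 5 and 6 did not. The sum of the 8 transcripts of the gene was 87.1, 72.5 and 70.9 FPKM in treated buds, against 114, 120.3 and 118.3 FPKM in control buds, so that the gene differed less than the member. TR12912|c2_g3_i13, of a gene described as an alpha-glucan-protein synthase, which in plants belongs to a family of sugar nucleotide mutases of wall polysaccharide synthesis, had 23.4, 17.7 and 0.35 FPKM in treated buds, against 32.1, 33.4 and 36.5 FPKM in control buds. The member was lowest in tree 6, and the gene sum was 440 FPKM in treated and 385 FPKM in control buds on average.

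A pair of members came from the hexose carrier gene. TR32324|c0_g1, described as HEX6-like, a family of sugar transporters of the plasma membrane, is an assembled gene of 23 transcripts. TR32324|c0_g1_i10 had 1.37, 3.64 and 0.01 FPKM in treated buds at 1 dat, against 8.23, 6.22 and 6.25 FPKM in control buds, and TR32324|c0_g1_i21 had 1.03, 0.39 and 4.05 FPKM, against 5.71, 6.57 and 10.3 FPKM. They held 1.72% and 1.88% of the gene's FPKM in treated buds, against 5.38% and 5.86% in control buds, and the gene sum differed by -0.40 on the log2 scale. TR12694|c0_g1_i7, described as a galactose-binding protein, had 8.98, 9.76 and under 0.01 FPKM in treated buds, against 12.0, 17.4 and 21.3 FPKM in control buds, and here the sum of the 7 transcripts was lower as well, at 18.5 ± 3.31 FPKM (SD, n = 3), against 49.7 ± 10.1 FPKM in control buds (SD, n = 3).

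Of the 6 members with only a term, both TR12866 transcripts carry terms of amino acid metabolism. TR12866|c1_g1_i7, with arginine biosynthesis among its pathways, had 3.37, 1.44 and under 0.01 FPKM in treated buds at 1 dat, against 7.16, 8.44 and 6.76 FPKM in control buds. TR12866|c1_g2_i4, with lysine biosynthesis, had 3.45, 5.84 and under 0.01 FPKM in treated buds, against 9.06, 11.1 and 9.8 FPKM in control buds. Tree 6 was lowest in both. TR37647|c0_g1_i1, of a gene with the term hydrolase activity on ester bonds, had 4.16, 2.03 and 3.17 FPKM in treated buds, against 16.3, 9.57 and 16.7 FPKM in control buds. TR6426|c0_g3_i1, with the term cofactor binding, was listed at 0 in tree 4, under 0.01 FPKM in tree 5 and at 0.42 FPKM in tree 6 in treated buds, against 5.76, 4.87 and 9.8 FPKM in control buds.

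The remaining described members were single forms of larger genes. They were TR11093|c0_g1_i4, an otubain-like enzyme that removes ubiquitin from proteins, TR13553|c1_g1_i9, an aminopeptidase M1-like, TR25994|c0_g1_i7, an F-box protein of the kind that selects proteins for degradation, TR13345|c4_g4_i12, a SET domain methyltransferase of ribosomal proteins, TR13576|c0_g1_i2, a BRCA1-associated protein, TR33665|c0_g1_i2, a WD repeat protein, and TR38522|c0_g1_i4, an uncharacterized protein. Their differences at 1 dat lay between -3.0 and -2.02 and those of their gene sums between -0.91 and -0.11. TR13345|c4_g4_i12 had 0.14, 1.05 and 1.79 FPKM in treated buds, against 8.68, 9.3 and 8.29 FPKM in control buds, and 1.66, 0.01 and 0.6 FPKM at day 0. Its treated level was thus that of untreated buds. At 3 dat it was called higher than day 0 in both groups, by 2.53 ± 0.52 in treated and 2.6 ± 0.51 in control buds (log2 FC ± SE, limma FDR = 0.0187 and 0.024).

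Of all members, 5 were called lower at 3 dat than at day 0 in treated and in control buds alike, and none of them has a description. The share of all transcripts called lower in both was not computed, so whether 5 of the 69 is many cannot be said. Taken singly, 3.24% of all transcripts tested were called lower in treated and 1.71% in control buds. TR40194|c5_g2_i1, the member with the highest control level at 1 dat, had 1147, 662 and 844 FPKM at day 0. Treated buds held 23.5, 23.5 and 16.7 FPKM at 1 dat, against 109.8, 110.1 and 107.5 FPKM in control buds, and 4.41, 1.62 and 1.13 FPKM at 3 dat, against 82.2, 30.8 and 87.4 FPKM in control buds. At 6 dat both were low, with 0.53, 0.29 and 0.59 FPKM in treated and 1.14, 1.45 and 1.6 FPKM in control buds. The level was thus lower at each later time in both groups. At all 3 times every treated library lay below every control library. TR668|c0_g1_i1 was also far above both groups at day 0, with 1.1, 0.27 and 0.28 FPKM in treated buds at 3 dat, against 32.2, 5.76 and 26.9 FPKM in control buds, beside 297.6, 225.1 and 360.3 FPKM at day 0. At 6 dat its groups overlapped, with 0.3, 0 and 0.34 FPKM in treated buds, against 0, 0 and 0.77 FPKM in control buds. TR9909|c0_g2_i2, whose gene carries the ontology term hexosyl transferase activity, had 142.8, 95.96 and 114.7 FPKM at day 0. It had 1.7, 2.95 and 1.28 FPKM in treated buds at 1 dat, against 10.7, 10.9 and 13.9 FPKM in control buds, and 2.74, 1.77 and 2.53 FPKM in treated buds at 3 dat, against 11.2, 8.0 and 11.8 FPKM in control buds. Its treated level was low from 1 dat on and did not drop further, with 3.07 FPKM on average at 6 dat, against 4.38 FPKM in control buds.

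The size of these falls to 3 dat was larger in treated buds in each of the 5, though the difference between the falls was tested only as treated against control buds at 3 dat, where TR203|c0_g2_i1 was not called (log2 FC -1.36 ± 0.49, limma FDR = 0.175). TR40194|c5_g2_i1 fell by 8.39 ± 0.40 in treated buds (log2 FC ± SE, limma FDR = 0.000111) and by 3.82 ± 0.40 in control buds (limma FDR = 0.00295). For TR668|c0_g1_i1 the values were -8.2 ± 0.32 in treated and -4.03 ± 0.57 in control buds (limma FDR = 6.2e-05 and 0.0089). TR9909|c0_g2_i2 fell by 5.38 ± 0.20 in treated and 3.45 ± 0.20 in control buds (limma FDR = 6.2e-05 and 0.000523), and TR203|c0_g2_i1 by 4.86 ± 0.27 and 3.5 ± 0.45 (limma FDR = 0.000155 and 0.00632). TR19340|c0_g1_i3, at a lower level throughout, fell by 3.98 ± 0.37 and 1.79 ± 0.42 (limma FDR = 0.000884 and 0.0422). The contrasts of treated and of control buds share the libraries of day 0.

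Over all members, 14 were called lower and 4 higher in treated buds at 3 dat than at day 0, beside 3.24% and 7.99% of the 61384 transcripts tested, a call being a limma FDR of 0.05 or less and a log2 FC of at least 1 in size. In control buds 6 were called lower and 7 higher, beside 1.71% and 4.39% of 61883. The median log2 FC of the members was -0.35 in treated and 0.36 in control buds, beside 0.16 and 0.18 over all transcripts tested. With libraries rescaled by median ratios, these medians over all transcripts were 0.0 and -0.03 and those of the members -0.51 and 0.10. The shares of all transcripts called were then 4.41% lower and 6.1% higher in treated buds, and 2.87% and 2.58% in control buds, where 10 members were called lower and 6 higher.

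The comparison of treated with control buds at 3 dat used no library of the rule. All 69 members passed the filter of a mean of 0.5 FPKM, and 58 had a log2 FC below 0, with a median of -1.01, beside -0.04 over all 63205 transcripts tested. Called lower were 7, beside 1.05% of all transcripts, and called higher was 1, beside 1.96%. Without overlap between the groups, and lower in treated buds, were 26, beside 13.2%. Treated buds were furthest below control buds for TR40194|c5_g2_i1, by 4.57 ± 0.51 (log2 FC ± SE, limma FDR = 0.00908), and TR668|c0_g1_i1, by 4.17 ± 0.64 (limma FDR = 0.018). Next came TR12340|c0_g1_i1, lower by 2.97 ± 0.47 (limma FDR = 0.0196), and TR11753|c0_g1_i1, lower by 2.93 ± 0.46 (limma FDR = 0.0185). TR19340|c0_g1_i3 was lower in treated than in control buds by 2.18 ± 0.43 (limma FDR = 0.0355). For TR9909|c0_g2_i2 the difference was 1.93 ± 0.25 (limma FDR = 0.0118) and for TR40462|c1_g1_i1 it was 1.03 ± 0.17 (limma FDR = 0.0227), both lower in treated buds.

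**Figure D5:**
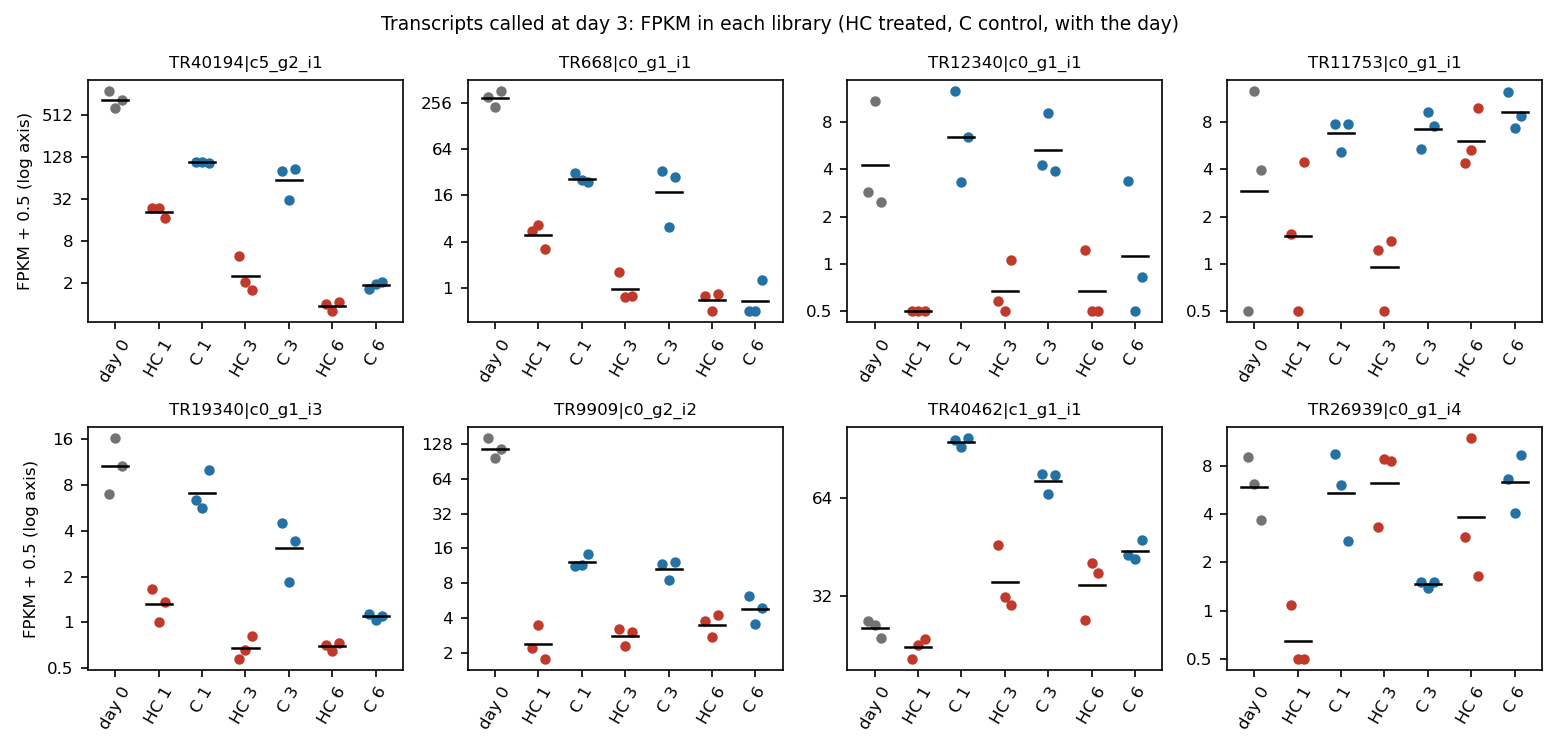
FPKM + 0.5 on a log2 axis for the 8 members called at 3 dat, in each library: untreated buds of day 0 (grey), treated buds (HC, red) and control buds (C, blue) at 1, 3 and 6 dat, 1 point per tree (4, 5 and 6 left to right), with the mean on the log scale as a bar. In 7 of the 8 the treated libraries of 3 dat lie below all control libraries of that day, and in TR26939|c0_g1_i4 they lie above them.

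TR40462|c1_g1_i1 had 45.4, 31.3 and 29.4 FPKM in treated buds at 3 dat, against 74.8, 65.1 and 74.7 FPKM in control buds, and it was the only one of these 7 whose control level was called higher than day 0, by 1.5 ± 0.11 (limma FDR = 0.00113). TR12340|c0_g1_i1 had 0.08, under 0.01 and 0.57 FPKM in treated buds, against 3.74, 8.54 and 3.37 FPKM in control buds. TR26939|c0_g1_i4 was the exception in direction, with 2.81, 8.35 and 8.11 FPKM in treated buds, against 1.01, 0.88 and 1.0 FPKM in control buds (log2 FC 2.11 ± 0.41, limma FDR = 0.0355). At 1 dat it had stood at 0.59, under 0.01 and under 0.01 FPKM in treated buds, against 9.1, 5.6 and 2.22 FPKM in control buds, so its order had turned between the 2 days, while the sum of its gene differed by 0.34 at 3 dat (limma FDR = 0.242).

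These calls changed when single libraries were left out, in fits whose share of all transcripts called is not given here. Without the control library of tree 4 or of tree 6, 1 member was called lower, and without the treated library of tree 4 or of tree 5, 3 were. TR40194|c5_g2_i1 was called in each fit that left out a single library. With tree as a block, 7 members were again called lower, 5 of them the same, and TR12340|c0_g1_i1, TR19340|c0_g1_i3 and TR26939|c0_g1_i4 were not called (limma FDR = 0.0548, 0.0732 and 0.0649). Over all alternatives the limma FDR of TR12340|c0_g1_i1 ranged between 0.00928 and 0.0786, that of TR19340|c0_g1_i3 between 0.000561 and 0.13, and that of TR26939|c0_g1_i4 between 0.0315 and 0.122.

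The summed assembled genes were tested in the same way at 3 dat. Of the 66 genes with a member, 13 were called lower in treated buds, beside 2.01% of the 29479 genes tested, with log2 FC between -4.57 and -1.01. Of these, 5 consist of a single transcript, 7 had a sum at least 1 lower at 1 dat, and 1, TR13116|c3_g5, had not. In 7 of the 13 no member had been called by itself, which holds for the lipid-transfer protein gene, for the galactose-binding protein gene TR12694|c0_g1 (13.2 ± 0.55 FPKM in treated buds, against 35.6 ± 8.07 FPKM in control buds, SD, n = 3, limma FDR = 0.00548) and for TR33115|c3_g2, whose ontology terms are copper ion binding and oxidoreductase activity (39.3 ± 10.6 FPKM in treated buds, against 82.2 ± 14.2 FPKM in control buds, SD, n = 3, limma FDR = 0.018). Without the treated library of tree 5 the count was 7, and without the control library of tree 6 it was 6. The shares of all genes called in those fits are not given here.

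The values on both sides of the threshold were close. The members nearest to it were TR12025|c2_g1_i9, TR38522|c0_g1_i4 and TR37647|c0_g1_i1, at -2.01, -2.02 and -2.02. Just outside stood TR25329|c1_g1_i2, TR16923|c0_g1_i1 and TR11841|c0_g1_i12, at -1.98 each. TR25329|c1_g1_i2 had 21.5 FPKM in treated and 85.9 FPKM in control buds on average. At 6 dat TR33665|c0_g1_i2 and TR40194|c5_g2_i1 were just inside, at -0.98 and -0.97, and TR13051|c2_g2_i5 and TR33135|c3_g4_i1 just outside, at -1.01 and -1.03. Without the condition on 6 dat, 107 transcripts would have met the rule. With a pseudocount of 1 FPKM 38 transcripts met it, with libraries rescaled by median ratios 37, and without tree 4 at 1 dat 114.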

How the data were processed

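Stranded mRNA libraries were made from 21 bud samples. The authors trimmed the reads (Trimmomatic 0.33), assembled them without a genome (Trinity, CD-HIT-EST), mapped them with STAR (version not given in the sources used here) and estimated expression with eXpress 1.5.1, which divides reads shared by similar transcripts among them. The deposited unit is FPKM per transcript, without counts, so that the depth of single libraries is unknown and an exact 0 may be a failed estimate. FPKM sums of assembled genes were computed here.

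The members, gene lists and alternatives were chosen with earlier results of these data known. Tests used limma 3.58.1 (R 4.3.3; trend, empirical Bayes) on log2(FPKM + 0.5) of the 6 libraries compared, for features with a mean of 0.5 FPKM or more, with Benjamini-Hochberg adjustment over all of them. A fold change on this scale understates that of low transcripts. The fit was also run on simulated data with normally distributed log2 levels, and the outcome is not given here. Members near zero in single libraries and well above it in others are unlike that setting. Named are members with a description, the 10 lowest differences at 1 dat, all calls at 3 dat and the neighbours of the threshold; others were chosen after their values were seen. The protocol in the labels names trees 4, 5 and 6 as the source of each treatment group, which pairs the samples by tree. Deviations from group means correlated at -0.01 to 0.07 between libraries of the same tree, against -0.07 to 0.03 between libraries of different trees. The ranges overlap and were not tested. Tables were made with Python 3.11.15, numpy 2.4.6 and pandas 2.3.3, and figures with matplotlib 3.10.9. Alternatives were other pseudocounts and filters, rescaling by median ratios, tree as a block, all libraries in a single fit, and leaving out libraries. The study's own fold changes and p-values were not used.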

Additional observations from a re-analysis of the deposited data

How the results depend on the processing

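The number of members was 38 with a pseudocount of 1 FPKM, 36 of them among the 69, 37 with libraries rescaled by median ratios, again 36 shared, and 114 without tree 4 at 1 dat, an alternative chosen after seeing the data, 54 shared. Leaving out 1 library of 1 or 6 dat gave 64 to 101. At 1 dat the median difference of all transcripts was -0.10 as deposited and 0.0 after rescaling, where that of the 69 members was -2.2. For treated against control buds at 3 dat, dropping the filter left 1 member called lower and 0 higher by limma. Over all 112043 transcripts that fit called 0.0884% lower and 0.218% higher, so calls became fewer among all transcripts too. At an unadjusted limma p of 0.05 it had 19 members lower and 1 higher. Tree as a block left 0 called higher, with 1 at an unadjusted p of 0.05. Without single libraries, 1 to 8 were called lower and 0 to 1 higher. For treated buds at 3 dat against day 0, dropping the filter gave 2 called higher, and single libraries left out gave 11 to 13 lower and 2 to 5 higher. For control buds against day 0, dropping the filter gave 3 lower and 4 higher, rescaling gave 10 lower, and single libraries left out gave 4 to 7 lower and 3 to 9 higher. Called assembled genes numbered 6 to 15 without single libraries. Shares of all features called are given only for the unfiltered fit of treated against control buds and, above, for the rescaled fits against day 0. For the other alternatives, fewer calls among all features cannot be told apart from a change in the members. The block changed no other count by over 1.5 times. For the named transcripts at 3 dat, 40 values over the alternatives lost and 7 gained a call, 395 kept their side, and none that was called changed direction. Most named transcripts were not called to begin with, and only a called member could lose a call. Each called member lost it at least once, under 1 alternative for TR40194|c5_g2_i1 and under 7 for TR19340|c0_g1_i3 and TR26939|c0_g1_i4. Causes were not tested beyond the number of transcripts and libraries entering each fit. The depth of single libraries is unknown, and 3 trees limit each test.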
